A study of Homo sapiens with 21 samples.

Results

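ATUX8H and ATUX9D are Panc-1 clones that both grew out under the PP2A activator ATUX, and Panc-1 is an established cell line from a human ductal carcinoma of the pancreas. All 6 libraries of these clones were used, 3 of ATUX8H and 3 of ATUX9D, out of 21 libraries of 7 clones in the whole set. The genotype label gave the clone and the title gave the repeat number. Both clones share the origin of the line (ATCC), 4 months of passage in rising ATUX, cloning by serial dilution and a dose of 8 µM ATUX at the time of sampling, so the comparison holds the drug constant and sets 2 clones side by side. The other libraries come from SMAP clones (SMAP6G, SMAP8D and SMAP9C) and Sorafenib clones (Sor6G and Sor9H), which carried 8 µM of their own drug. Each group is 1 clone, and the clones to be sequenced had been picked in part by qRT-PCR. Nothing in the labels says that the repeats were separate cultures, so the p-values rest on how far these libraries lie apart, a spread that can be technical. Cells without drug were not analysed here, and no value below is a change from the parental line.

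PP2A is a serine/threonine phosphatase built from a scaffold, a catalytic and 1 of many regulatory subunits, and the regulatory subunit directs the enzyme to its substrates. Ductal carcinoma cells can occupy states between an epithelial one, with E-cadherin junctions and keratins, and a mesenchymal one, with N-cadherin and matrix genes. ZEB1, a transcriptional repressor, holds down epithelial genes in the mesenchymal state. ATF4 drives the integrated stress response, a programme of amino acid transport and synthesis that cells switch on when translation initiation is restrained.

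The 6 libraries held 22039174 to 26604142 counts (median 23140809), of which 3.19 to 4.24% fell on mitochondrial genes. Values are CPM, reads per 1e6 reads of the library, after TMM scaling over the 6 libraries. Repeats 1 and 2 of a clone lay close together, at a root mean square log2 difference of 0.284 in ATUX8H and 0.295 in ATUX9D. Repeat 3 lay 0.472 and 0.481 from the other repeats in ATUX8H, and 0.409 and 0.417 in ATUX9D. Libraries of different clones lay 0.822 to 0.906 apart. No pair agreed within counting noise (chi-square per degree of freedom of at least 3.59), so each library was counted on its own. Fold changes are given from a fit with the repeat number as a block. The value of every library is shown for many of the genes described, and the others are given by their log2 or their counts alone.

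**Figure D1:**
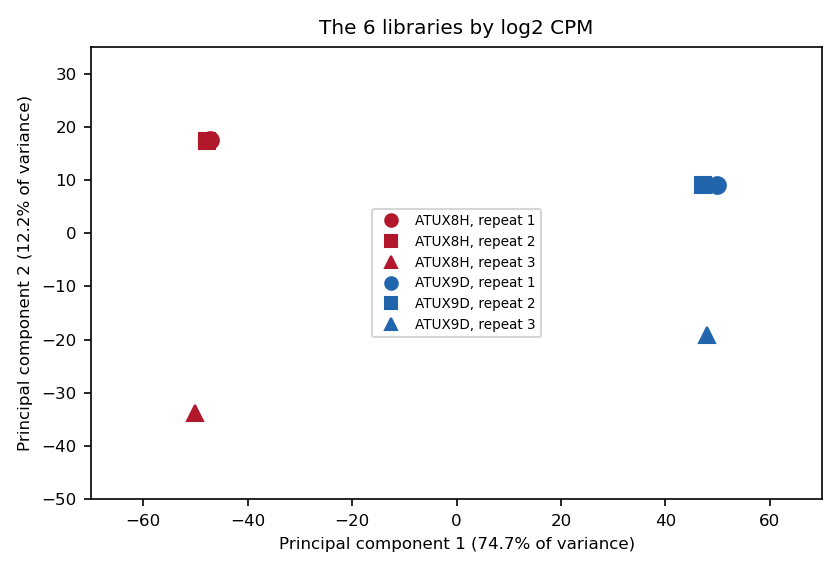
Principal components of log2 CPM of the 6 libraries, with the share of variance on each axis. Component 1 (74.7% of variance) separates ATUX8H, at -47.2 to -50.1, from ATUX9D, at 47.3 to 49.9, and component 2 (12.2%) sets repeat 3 of each clone (-33.9 in ATUX8H, -19.1 in ATUX9D) apart from repeats 1 and 2.

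Of 14802 genes tested, 5964 (40.3%) passed an adjusted p of 0.05 between the clones, 3080 higher in ATUX8H (20.8%) and 2884 lower (19.5%). The larger differences were unequally split: 1241 genes (8.38%) were called and at least 2-fold higher, against 460 (3.11%) at least 2-fold lower. The median log2 over all tested genes was 0.00 and the median absolute log2 was 0.25. Libraries of the clones did not overlap in 7272 genes (49.1%), and 499 called genes overlapped in at least 1 library. The number called moved with the libraries used. It was 8898 without repeat 3 of ATUX8H, 8915 without repeat 3 of ATUX9D and 8848 without both. It was 3565 and 3621 without repeat 1 or 2 of ATUX8H, and 3666 and 3373 without repeat 1 or 2 of ATUX9D. List counts moved likewise. Of 38 lists, 37 had no more members called without repeat 1 or 2 of either clone, the exception being the fibroblast markers, and all 38 had no fewer without repeat 3. The lowest and highest counts with 1 library left out are given below for lists that moved by over 1.5 times. The shares of 40.3% and 49.1% are the background for the gene lists below, and the members and lists were picked with earlier results on these libraries known. The expression filter kept genes expressed in either clone alone. Listed genes near silent in the other clone were therefore tested with their direction largely fixed.

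ATUX8H held more RNA of most listed epithelial genes than ATUX9D. CDH1 (ENSG00000039068, GRCh38 chromosome 16, 68737225 to 68835548, plus strand), which encodes E-cadherin, the cadherin of epithelial junctions, was at 96.9, 106.7 and 24.9 CPM in repeats 1, 2 and 3 of ATUX8H, against 8.51, 8.92 and 3.71 CPM in ATUX9D. The groups did not overlap, and repeat 3 was the lowest library in each clone. The difference was a log2 of 3.36 ± 0.16 (SE, n = 3 libraries a clone, edgeR adjusted p = 5.35e-05), and it was smaller in repeat 3, with an interaction (the clone difference in repeat 3 minus that in repeats 1 and 2) of log2 -0.80. With 1 library of repeat 3 per clone, interactions are given as descriptions. Of the 38 epithelial junction and identity genes listed, 31 could be tested, of which 22 were higher, 6 lower and 3 not called, with a median log2 of 1.25. The lower count was 3 to 6 with single libraries left out. Among the 23 that passed a filter of 5 CPM, 15 were higher and 6 lower and the median was 0.54. CDH3, the P-cadherin gene, was at 67.6, 75.1 and 31.2 CPM in ATUX8H, against 9.63, 9.45 and 8.00 CPM in ATUX9D (log2 = 2.62 ± 0.20, edgeR adjusted p = 3.08e-04). CDS1, a CDP-diacylglycerol synthase of phospholipid metabolism, was at 38.8, 41.7 and 24.2 CPM in ATUX8H, against 3.03, 2.97 and 2.32 CPM in ATUX9D (log2 = 3.64 ± 0.11, edgeR adjusted p = 1.20e-05). In all 3 genes every ATUX8H library was above every ATUX9D library.

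EPCAM, an epithelial adhesion molecule, was at 8.22, 8.26 and 8.50 CPM in ATUX8H, against 3.03, 3.24 and 2.01 CPM in ATUX9D (log2 = 1.602 ± 0.19, edgeR adjusted p = 0.00107). ELF3, an epithelial transcription factor, was at 13.8, 14.2 and 6.67 CPM in ATUX8H, against 3.32, 3.81 and 0.894 CPM in ATUX9D (log2 = 2.18 ± 0.20, edgeR adjusted p = 4.19e-04). The splicing factor gene ESRP2, active in epithelia, was at 23.8, 22.9 and 27.1 CPM in ATUX8H, against 10.0, 10.3 and 10.6 CPM in ATUX9D (log2 = 1.25 ± 0.09, edgeR adjusted p = 1.30e-04). ZEB1, the repressor, ran the other way, at 38.9, 40.7 and 46.1 CPM in ATUX8H, against 80.6, 75.8 and 71.0 CPM in ATUX9D (log2 = -0.86 ± 0.09, edgeR adjusted p = 6.74e-04). The 6 epithelial genes that were lower included JUP, the plakoglobin gene, at 438.7, 387.7 and 240.8 CPM in ATUX8H and 785.9, 728.2 and 514.9 CPM in ATUX9D (log2 = -0.95 ± 0.06, edgeR adjusted p = 8.33e-05), and CTNNA1, the alpha-catenin gene, whose call (log2 = -0.22) was lost without repeat 1 or 2 of either clone. DSG2 and DSC2, both desmosomal cadherins, were lower as well (log2 = -0.92 and -0.85), opposite in direction to CDH1.

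**Figure D2:**
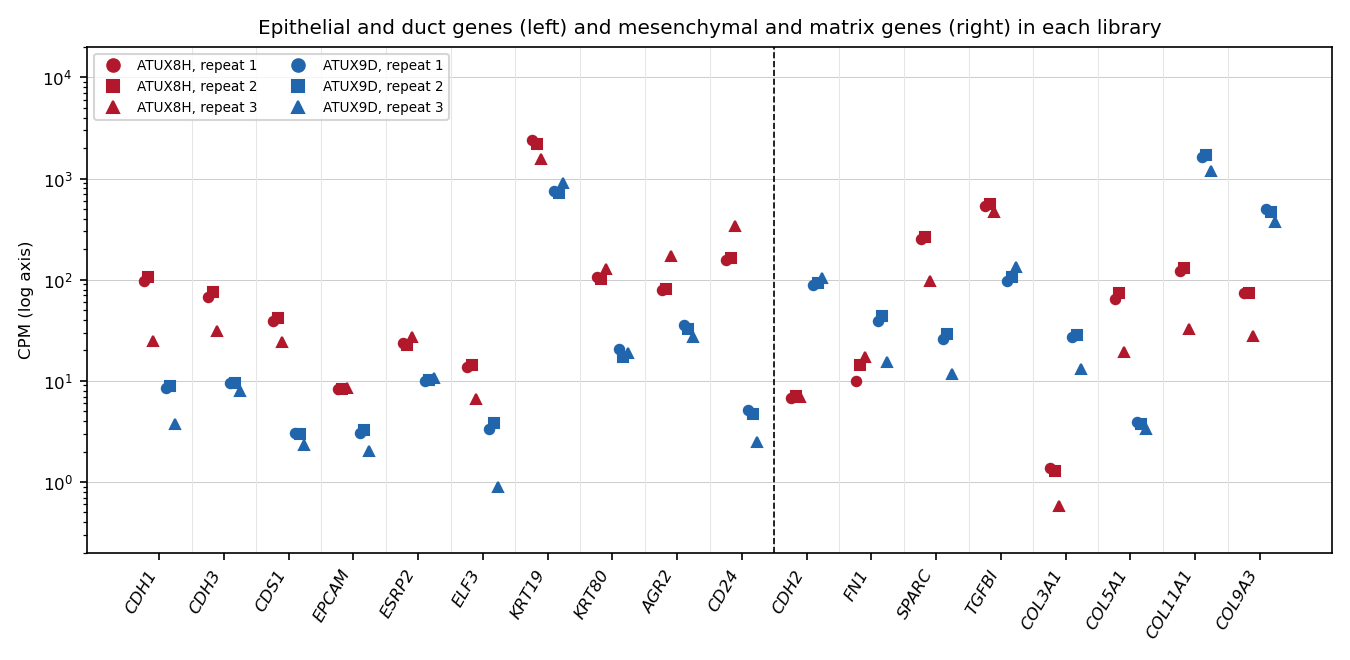
CPM (log axis) of epithelial and duct genes, left of the dashed line, and of mesenchymal and matrix genes, right of it, with 1 symbol per library, ATUX8H left of ATUX9D and triangles for repeat 3. CDH1 is at 24.9 to 106.7 CPM in ATUX8H and 3.71 to 8.92 CPM in ATUX9D, and CDH2 at 6.78 to 7.01 CPM in ATUX8H and 88.6 to 104.8 CPM in ATUX9D.

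The E-box CACCTG, searched on both strands, is the short motif that ZEB and SNAI repressors bind. It was looked for in the 300 bases around RefSeq gene starts (GRCh38.p14, 250 before and 50 after). The motif stood in 20.6% of all 27305 promoters. Promoters of 19 of the 31 tested epithelial genes matched by symbol, and 8 held it, 4 of the 11 that were higher and 3 of the 6 that were lower in ATUX8H. The promoters of ELF3 and CDS1, both higher in ATUX8H, are shown 5′ to 3′ with the E-box in capitals.
ELF3, chr1:202010337-202010636, plus strand: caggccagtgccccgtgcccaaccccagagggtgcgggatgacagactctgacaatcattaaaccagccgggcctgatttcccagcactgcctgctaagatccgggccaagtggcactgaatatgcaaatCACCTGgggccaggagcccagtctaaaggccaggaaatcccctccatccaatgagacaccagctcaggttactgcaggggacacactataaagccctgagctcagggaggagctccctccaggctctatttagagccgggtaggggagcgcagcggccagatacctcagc
CDS1, chr4:84582877-84583176, plus strand: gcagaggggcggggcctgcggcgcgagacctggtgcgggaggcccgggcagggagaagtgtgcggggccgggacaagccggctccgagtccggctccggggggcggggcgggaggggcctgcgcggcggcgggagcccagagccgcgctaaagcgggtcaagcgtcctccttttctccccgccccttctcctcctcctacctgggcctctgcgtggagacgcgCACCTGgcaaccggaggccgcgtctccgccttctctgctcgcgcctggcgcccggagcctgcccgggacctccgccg

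Keratins and duct genes were higher in ATUX8H as well. Of 9 keratins tested (16 listed), 8 were higher and 0 lower, with a median log2 of 1.10, against 4 to 9 higher and 0 to 1 lower with single libraries left out. Of 10 duct genes tested (23 listed), 9 were higher and 0 lower, with a median log2 of 1.54. The duct median was 0.88 without repeat 3 of ATUX9D, where 13 genes were tested, and 0.76 over the 5 genes that passed a filter of 5 CPM. That filter, too, was applied to the higher clone. Under either filter, duct genes near silent in ATUX9D could be tested through ATUX8H alone. KRT19, the ductal keratin (ENSG00000171345, GRCh38 chromosome 17, 41523617 to 41528308, minus strand), was at 2388, 2198 and 1552 CPM in ATUX8H, against 750.2, 720.4 and 901.5 CPM in ATUX9D (log2 = 1.36 ± 0.18, edgeR adjusted p = 0.00319). Repeat 3 was lowest in ATUX8H and highest in ATUX9D (interaction log2 -0.86). The call of KRT19 was lost without repeat 2 of ATUX8H and without a filter on low counts. KRT8, the partner of KRT18 in simple epithelia, was at 7087, 6729 and 4470.3 CPM in ATUX8H and 4287, 4142 and 4031 CPM in ATUX9D (log2 = 0.53 ± 0.12, edgeR adjusted p = 0.0162). KRT18 was at 3545, 3232 and 2214 CPM in ATUX8H and 2367, 2420.2 and 2021 CPM in ATUX9D (log2 = 0.38 ± 0.08, edgeR adjusted p = 0.0165), so that repeat 3 of ATUX8H fell among the ATUX9D libraries. The calls of KRT8 and KRT18 were each lost when certain single libraries were left out. That of KRT8 was also lost in DESeq2 with the block and without a filter on low counts, and that of KRT18 without the block. The call of KRT80 (log2 = 2.56 ± 0.08, edgeR adjusted p = 1.24e-05) held in every alternative run. KRT15 (log2 = 1.10) and KRT7 (log2 = 0.71) were also higher, KRT7 not without the block.

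AGR2, a secretory disulfide isomerase of mucinous cells, was at 79.6, 81.5 and 173.0 CPM in ATUX8H, against 35.4, 32.6 and 27.1 CPM in ATUX9D (log2 = 1.71 ± 0.30, edgeR adjusted p = 0.0082). Repeat 3 moved in opposite directions in the clones (interaction log2 1.43), and the call was lost without repeat 1 or 2 of either clone. MUC1, a membrane mucin, was at 24.1, 22.5 and 18.6 CPM in ATUX8H and 14.2, 12.6 and 12.2 CPM in ATUX9D (log2 = 0.74 ± 0.09, edgeR adjusted p = 0.00112). The duct regulator SOX9 did not pass, at 165.4, 166.5 and 146.1 CPM in ATUX8H and 144.7, 149.4 and 139.7 CPM in ATUX9D (log2 = 0.14 ± 0.05, edgeR adjusted p = 0.063), though it was called higher in 6 alternatives, among them each fit without repeat 3. The gel-forming mucins MUC5AC, MUC5B and MUC6 were higher from low levels. No acinar gene of 16 listed could be tested, and the summed acinar markers were at 0.086 to 0.224 CPM in ATUX8H and 0 CPM in ATUX9D.

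CDH2 (ENSG00000170558, GRCh38 chromosome 18, 27950966 to 28177446, minus strand), which encodes N-cadherin, was at 6.78, 7.01 and 6.85 CPM in ATUX8H, against 88.6, 92.0 and 104.8 CPM in ATUX9D (log2 = -3.79 ± 0.08, edgeR adjusted p = 4.76e-06). The mesenchymal list as a whole did not follow it. Of 28 tested genes (35 listed), 6 were higher, 9 lower and 13 not called, with a median log2 of -0.21, against 4 to 11 higher and 6 to 14 lower with single libraries left out. SPARC, a matrix glycoprotein, was higher at 253.3, 264.9 and 96.4 CPM in ATUX8H, against 25.9, 28.8 and 11.8 CPM in ATUX9D (log2 = 3.19 ± 0.07, edgeR adjusted p = 4.76e-06). TGFBI, a TGF-beta-induced matrix protein, was at 538.6, 565.1 and 469.4 CPM in ATUX8H, against 97.6, 107.4 and 134.7 CPM in ATUX9D (log2 = 2.22 ± 0.14, edgeR adjusted p = 1.42e-04). These genes did not overlap between the clones. VIM, the vimentin gene, overlapped, at 3353, 3282 and 3168 CPM in ATUX8H and 3062, 3153 and 3628 CPM in ATUX9D (log2 = 0.00 ± 0.07, edgeR adjusted p = 0.983), and CD44 was lower (log2 = -0.38 ± 0.06, edgeR adjusted p = 0.00308). TNC, the tenascin C gene, was higher (log2 = 2.33 ± 0.40, edgeR adjusted p = 0.00634), a call lost without repeat 1 of either clone.

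FN1, the fibronectin gene, showed how far repeat 3 can carry a value. It was at 9.93, 14.3 and 17.3 CPM in ATUX8H and 39.4, 43.5 and 15.2 CPM in ATUX9D. Repeats 1 and 2 were apart and repeat 3 was not, which left the difference uncalled (log2 = -1.16 ± 0.42, edgeR adjusted p = 0.077), with an interaction of log2 1.96. FN1 was called lower in 6 alternatives, among them each fit without repeat 3.

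Collagen genes went both ways. Of 17 tested collagens (24 listed), 6 were higher and 6 lower, with a median log2 of -0.03. With single libraries left out 4 to 8 were lower. COL11A1 (ENSG00000060718, GRCh38 chromosome 1, 102876467 to 103108496, minus strand), a fibrillar collagen, was at 121.3, 130.8 and 32.5 CPM in ATUX8H, against 1630.0, 1718 and 1182 CPM in ATUX9D (log2 = -4.18 ± 0.33, edgeR adjusted p = 4.76e-04). Its call was lost without repeat 2 of ATUX8H or repeat 1 of ATUX9D. On a scale shared by all 21 libraries the other 5 clones held 0.565 to 139.6 CPM of it. COL3A1 was at 1.36, 1.29 and 0.582 CPM in ATUX8H, against 27.4, 28.4 and 13.0 CPM in ATUX9D (log2 = -4.41 ± 0.12, edgeR adjusted p = 9.76e-06). COL9A3 was lower (log2 = -3.02 ± 0.22, edgeR adjusted p = 3.98e-04), as was COL21A1, at 10.7, 10.5 and 4.79 CPM in ATUX8H and 179.8, 189.7 and 112.4 CPM in ATUX9D (log2 = -4.24 ± 0.10, edgeR adjusted p = 6.36e-06). COL5A1, another fibrillar collagen, was higher at 64.3, 73.5 and 19.2 CPM in ATUX8H, against 3.94, 3.74 and 3.35 CPM in ATUX9D (log2 = 3.72 ± 0.32, edgeR adjusted p = 5.87e-04), a call lost when no filter on low counts was used. COL1A1 did not pass, at 38.9, 46.2 and 19.7 CPM in ATUX8H and 37.7, 37.9 and 45.8 CPM in ATUX9D. Repeat 3 was below the other ATUX8H libraries in each of these collagens.

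Both groups are clones of 1 carcinoma line, so markers of other cell types are given as RNA levels and do not count such cells. In bulk RNA, the share of cells that express a gene and the RNA per cell cannot be told apart. All 8 fibroblast markers read beside the matrix genes were seen in at least 1 library, FAP at 0 in all ATUX8H libraries, and their sum was 21.2 to 48.9 CPM in ATUX8H and 60 to 68.3 CPM in ATUX9D. COL1A1 and COL3A1 made up most of this sum, at 37.7 and 27.4 CPM of 67 CPM in repeat 1 of ATUX9D. The fibroblast sum thus largely restates the collagen values above. Immune markers summed to 1.21 to 1.62 CPM in ATUX8H and 1.34 to 3.24 CPM in ATUX9D, endothelial markers to 0.043 to 0.269 CPM in ATUX8H and 0.083 to 0.114 CPM in ATUX9D, and the duct markers, which include KRT19, to 1740 to 2590 CPM in ATUX8H and 891 to 1070 CPM in ATUX9D.

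Integrins and laminins also split, with 6 higher and 7 lower of 23 tested and a median log2 of 0.20. LAMB3, a chain of laminin 332, was higher at 4.60, 3.05 and 15.8 CPM in ATUX8H, against 0.249, 0.191 and 0.626 CPM in ATUX9D (log2 = 4.37 ± 0.23, edgeR adjusted p = 4.87e-05). ITGB4, whose protein is the receptor chain for that laminin, was lower at 268.8, 280.7 and 309.1 CPM in ATUX8H, against 1029.7, 1066 and 666.4 CPM in ATUX9D (log2 = -1.66 ± 0.18, edgeR adjusted p = 0.0014), a call lost without a filter on low counts. ITGA1, a collagen receptor chain, was lower too (log2 = -2.20 ± 0.11, edgeR adjusted p = 4.80e-05), and ITGB3 was higher (log2 = 1.76 ± 0.15, edgeR adjusted p = 2.81e-04). Among matrix proteases and their inhibitors, 8 of 19 tested were higher and 4 lower, against 4 to 10 higher with single libraries left out. MMP1, the interstitial collagenase, was at 0.469, 0.645 and 15.2 CPM in ATUX8H and 3.07, 5.11 and 50.6 CPM in ATUX9D (log2 = -2.14 ± 0.24, edgeR adjusted p = 0.00112), so that repeat 3 held most of its reads in both clones. Without the block on repeat number this call was lost. MMP14, the membrane-anchored collagenase, was lower in every ATUX8H library (log2 = -1.54 ± 0.10, edgeR adjusted p = 1.01e-04), and MMP24 was higher (log2 = 3.27 ± 0.23, edgeR adjusted p = 1.55e-04).

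The 15 genes with the largest log2 in each direction were taken from called genes whose libraries did not overlap between the clones. Those higher in ATUX8H included genes close to absent in ATUX9D. CD69 (ENSG00000110848, GRCh38 chromosome 12, 9752486 to 9760901, minus strand), a C-type lectin best known from activated lymphocytes, was at 6.48, 5.81 and 12.9 CPM in ATUX8H and had 0 counts in ATUX9D, at least 202-fold higher against 3 counts over the clone. FFAR4, a receptor for long-chain fatty acids, had 386 counts over the ATUX8H libraries and 1 over those of ATUX9D, a ratio of 406 with a 95% counting interval of 72.5 to 16100. PKD1L1, a polycystin family gene, was at 54.1, 53.8 and 26.3 CPM in ATUX8H, against 0.498, 0.343 and 0.134 CPM in ATUX9D (log2 = 7.09 ± 0.15, edgeR adjusted p = 4.76e-06). In the other 5 clones CD69 reached at most 0.0285 CPM, FFAR4 0.0443 CPM and PKD1L1 1.71 CPM.

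TGFA, a ligand of the EGF receptor, was at 8.52, 9.68 and 9.58 CPM in ATUX8H, against 0.125, 0.229 and 0.0447 CPM in ATUX9D (log2 = 6.03 ± 0.31, edgeR adjusted p = 4.76e-05). CD24, a surface glycoprotein used as a stem cell marker in pancreatic cancer, was at 158.4, 163.3 and 336.7 CPM in ATUX8H, against 5.15, 4.73 and 2.503 CPM in ATUX9D (log2 = 5.62 ± 0.38, edgeR adjusted p = 2.91e-04). CD24 has near-identical copies in the genome, so its counts are uncertain, and its call was lost without repeat 2 of ATUX8H or repeat 1 of ATUX9D. PTGS1, the cyclooxygenase 1 gene, was at 43.6, 43.5 and 3.62 CPM in ATUX8H, against 0.249, 0.496 and 0.223 CPM in ATUX9D (log2 = 6.49 ± 0.35, edgeR adjusted p = 8.98e-05). UPK1B, a urothelial plaque protein gene (log2 = 5.96), CREB3L1, a membrane-bound transcription factor (log2 = 5.56), LOXL4, a lysyl oxidase (log2 = 5.43), ELOVL6, a fatty acid elongase (log2 = 5.38), KIRREL3, an adhesion molecule (log2 = 5.38), PPM1H, a protein phosphatase (log2 = 5.32), and the calpain CAPN8 (log2 = 6.203) completed the group with ALPPL2, a placental-type alkaline phosphatase with close paralogs (log2 = 6.63), and the focal adhesion gene TNS4 (log2 = 6.52). Each of these passed with an edgeR adjusted p of at most 7.50e-04.

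In the other direction, NMNAT2, the neuronal NAD synthesis enzyme, was at 1.45, 1.72 and 3.18 CPM in ATUX8H, against 51.8, 54.8 and 101.3 CPM in ATUX9D (log2 = -5.04 ± 0.09, edgeR adjusted p = 3.72e-06). CDH10, a neural cadherin, was at 0.895, 0.860 and 1.03 CPM in ATUX8H, against 31.2, 29.6 and 39.6 CPM in ATUX9D (log2 = -5.16 ± 0.11, edgeR adjusted p = 4.92e-06). SUSD2, a surface protein, was at 17.6, 17.5 and 5.41 CPM in ATUX8H, against 344.2, 348.6 and 276.0 CPM in ATUX9D (log2 = -4.66 ± 0.27, edgeR adjusted p = 1.74e-04). Also lower were GRM4, a glutamate receptor gene (log2 = -5.07), GPR37, an orphan receptor gene (log2 = -4.81), BCHE, the butyrylcholinesterase gene (log2 = -4.40), and TENM3, a teneurin gene (log2 = -4.30), whose call was lost without a filter on low counts. HMCN1, a giant matrix protein gene (log2 = -5.48), TNFRSF11B, the osteoprotegerin gene (log2 = -5.71), CCDC85A (log2 = -5.14), IGFBP7 (log2 = -4.50), LGR6, an R-spondin receptor (log2 = -4.44), and the kinase PAK6 (log2 = -4.27) were lower too, and COL3A1 and COL21A1 completed the 15 lower genes chosen by size of log2. The genes of this paragraph passed with edgeR adjusted p of at most 0.00317. The calls of SUSD2 and PAK6 were lost without repeat 2 of ATUX8H, and that of PAK6 also without a filter on low counts.

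By difference in CPM among called genes at least 2-fold apart, those most apart and higher in ATUX8H included FLNA, KRT19, HSPG2 and RPL10. HSPG2, the perlecan gene, was at 904.0, 1210.1 and 1139 CPM in ATUX8H, against 318.2, 436.3 and 316.5 CPM in ATUX9D (log2 = 1.61 ± 0.08, edgeR adjusted p = 5.56e-05). FLNA and RPL10 lie on chromosome X and are described with it. COL11A1, MICAL2, ITGB4, SAT1 and PODXL led those lower. MICAL2, an actin-oxidising enzyme, was at 240.0, 251.0 and 178.1 CPM in ATUX8H, against 1278, 1289.6 and 942.7 CPM in ATUX9D (log2 = -2.39 ± 0.04, edgeR adjusted p = 3.72e-06). PODXL, a sialomucin, was at 293.4, 323.7 and 758.1 CPM in ATUX8H, against 820.6, 860.4 and 1085 CPM in ATUX9D (log2 = -1.14 ± 0.20, edgeR adjusted p = 0.00766), a call lost without the block and without repeat 1 or 2 of either clone.

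Among the subunits and regulators of PP2A, the phosphatase that ATUX activates, regulatory subunits of the B55 family differed most. PPP2R2B (ENSG00000156475, GRCh38 chromosome 5, 146581146 to 147084784, minus strand), the B55 beta subunit, was at 51.1, 44.9 and 46.7 CPM in ATUX8H, against 1.37, 1.41 and 3.49 CPM in ATUX9D (log2 = 4.55 ± 0.27, edgeR adjusted p = 1.27e-04). Repeat 3 of ATUX9D was above its other libraries, and the difference was smaller in that repeat (interaction log2 -1.36). PPP2R2C, the B55 gamma subunit, was at 18.7, 18.9 and 31.1 CPM in ATUX8H, against 7.47, 6.40 and 10.9 CPM in ATUX9D (log2 = 1.47 ± 0.09, edgeR adjusted p = 9.99e-05). PPP2R2D, the B55 delta subunit, was lower (log2 = -0.44 ± 0.07, edgeR adjusted p = 0.00508). Of the 31 listed and tested PP2A genes, 4 were higher and 13 lower, with a median log2 of -0.12. The lower count was 6 without repeat 1 or 2 of ATUX8H, 6 and 5 without repeat 1 or 2 of ATUX9D, and 20 without repeat 3 of either clone.

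RNA of the core enzyme genes PPP2CB, PPP2R1A and PPP2CA was lower in ATUX8H by small amounts, and neither protein nor enzyme activity is given by these counts. PPP2CB, the beta catalytic subunit, was at 46.7, 46.9 and 52.3 CPM in ATUX8H, against 68.2, 65.3 and 71.9 CPM in ATUX9D (log2 = -0.49 ± 0.05, edgeR adjusted p = 8.86e-04). PPP2R1A, the alpha scaffold, was at 165.9, 159.7 and 157.4 CPM in ATUX8H, against 198.7, 186.7 and 205.8 CPM in ATUX9D (log2 = -0.29 ± 0.05, edgeR adjusted p = 0.00534). PPP2CA, the alpha catalytic subunit, was at 173.0, 169.2 and 179.4 CPM in ATUX8H, against 204.7, 204.0 and 195.8 CPM in ATUX9D (log2 = -0.21 ± 0.05, edgeR adjusted p = 0.0153), a call lost without repeat 1 or 2 of either clone. PPP2R1B, the beta scaffold, did not pass, at 78.7, 75.2 and 68.2 CPM in ATUX8H and 82.7, 81.6 and 74.4 CPM in ATUX9D (log2 = -0.10 ± 0.05, edgeR adjusted p = 0.146), but was called lower in 4 alternatives. The inhibitor SET was lower (log2 = -0.31 ± 0.05, edgeR adjusted p = 0.00456), a call lost without repeat 2 of ATUX9D. The inhibitor KIAA1524, also known as CIP2A, was lower (log2 = -0.35), as were the striatins STRN and STRN4, the methylesterase PPME1 and the activator PTPA, by log2 values of -0.16 to -0.36. The calls of these genes and of PPP2R2D were not followed singly through the alternatives. The lower count of their list fell from 13 to 5 or 6 without repeat 1 or 2 of either clone. ARPP19 was not called (log2 = -0.09 ± 0.04, edgeR adjusted p = 0.165), but was called lower in 4 alternatives. For PPP2R1B and ARPP19 these included each fit without repeat 3. IGBP1, which binds free catalytic subunits, was higher (log2 = 0.97 ± 0.07, edgeR adjusted p = 1.27e-04), and lies in the chromosome X stretch with a median log2 of 0.83.

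ATUX8H held lower levels of cell cycle genes. Of 32 tested G1 to S and replication genes (33 listed), 27 were lower and 0 higher, with a median log2 of -0.39. Of 29 G2 and mitosis genes, 24 were lower and 0 higher, with a median log2 of -0.32. The lower count of the G2 and mitosis list was 14 without repeat 1 and 12 without repeat 2 of either clone, and that of the G1 to S list 19 to 30 with single libraries left out. In both lists 0 genes were called at 2-fold or more. CDK6, the G1 kinase, was at 144.8, 157.1 and 146.7 CPM in ATUX8H, against 284.6, 295.6 and 253.8 CPM in ATUX9D (log2 = -0.89 ± 0.05, edgeR adjusted p = 6.83e-05). Its partner CCND1, the cyclin D1 gene, was at 280.4, 292.2 and 351.6 CPM in ATUX8H, against 445.4, 447.0 and 478.5 CPM in ATUX9D (log2 = -0.58 ± 0.05, edgeR adjusted p = 4.74e-04). TYMS, thymidylate synthase, was at 156.3, 149.8 and 172.4 CPM in ATUX8H, against 247.5, 248.9 and 242.4 CPM in ATUX9D (log2 = -0.63 ± 0.06, edgeR adjusted p = 4.29e-04). The clones did not overlap in these genes, repeat 3 included. E2F2 (log2 = -0.87), CCNE2 (log2 = -0.66), CCNA2 (log2 = -0.65), KIF20A (log2 = -0.73), KIF11 (log2 = -0.59), PLK1 (log2 = -0.56) and TPX2 (log2 = -0.49) were lower with edgeR adjusted p of at most 9.43e-04. TOP2A, a topoisomerase gene of dividing cells, did not pass over all repeats (log2 = -0.16 ± 0.06, edgeR adjusted p = 0.0833). It was called lower in 6 of 15 alternatives, among them each fit without repeat 3.

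The median over G1 to S genes was -0.41, -0.38 and -0.37 within repeats 1, 2 and 3, and that over G2 and mitosis genes -0.35, -0.39 and -0.25. The p53 targets split, with 5 higher and 9 lower of 24, against 1 to 10 higher and 5 to 9 lower with single libraries left out. MDM2, the ubiquitin ligase of p53, was lower in every ATUX8H library (log2 = -0.70 ± 0.06, edgeR adjusted p = 2.61e-04), whereas CDKN1A, the p21 gene, was at 150.6, 147.5 and 103.4 CPM in ATUX8H and 129.2, 129.5 and 163.5 CPM in ATUX9D (log2 = -0.08 ± 0.18, edgeR adjusted p = 0.755). Without repeat 3 of both clones CDKN1A had a log2 of 0.20 (edgeR adjusted p = 2.95e-06), and its interaction was log2 -0.87.

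E2F factors bind sites such as TTTCCCGC near the starts of replication genes. That motif, searched on both strands, stood in 1.66% of all promoters and in 10 of the 26 matched promoters of tested G1 to S genes, each of the 10 in a gene that was lower in ATUX8H. Of the matched promoters, 21 belonged to genes that were lower. The variant TTTGGCGC stood in 0.659% of all promoters and in 6 of the 26. The cell cycle homology region TTTGAA, through which the DREAM complex acts on mitosis genes, stood in 15.4% of all promoters and in 15 of 24 matched G2 and mitosis promoters, of which 11 belonged to the 20 that were lower. These lists were built around genes known to carry such sites, so the shares describe the lists and not the clones. The promoters of PCNA, the replication clamp gene (log2 = -0.42), and TYMS are shown with the E2F site in capitals, and those of PLK1 and KIF11, a mitotic kinase and a mitotic motor, with the homology region in capitals. Capitals that do not spell the motif spell it on the opposite strand.
PCNA, chr20:5126573-5126872, minus strand: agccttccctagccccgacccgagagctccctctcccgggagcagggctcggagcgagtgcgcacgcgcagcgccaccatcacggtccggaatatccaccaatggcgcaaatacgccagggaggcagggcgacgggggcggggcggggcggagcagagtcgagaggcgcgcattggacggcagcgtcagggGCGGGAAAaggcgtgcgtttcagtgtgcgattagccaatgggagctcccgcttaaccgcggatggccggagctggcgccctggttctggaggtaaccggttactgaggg
TYMS, chr18:657403-657702, plus strand: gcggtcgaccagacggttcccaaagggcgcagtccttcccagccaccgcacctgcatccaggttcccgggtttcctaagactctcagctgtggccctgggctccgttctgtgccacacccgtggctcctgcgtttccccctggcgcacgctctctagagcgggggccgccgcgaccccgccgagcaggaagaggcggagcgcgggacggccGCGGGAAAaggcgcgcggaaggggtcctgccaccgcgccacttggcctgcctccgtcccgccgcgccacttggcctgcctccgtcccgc
PLK1, chr16:23678639-23678938, plus strand: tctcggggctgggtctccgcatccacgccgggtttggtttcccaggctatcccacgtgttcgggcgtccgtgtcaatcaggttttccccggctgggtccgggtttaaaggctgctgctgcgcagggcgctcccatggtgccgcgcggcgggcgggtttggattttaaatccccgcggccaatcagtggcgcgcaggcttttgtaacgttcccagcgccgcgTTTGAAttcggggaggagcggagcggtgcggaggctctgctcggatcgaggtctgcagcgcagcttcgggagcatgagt
KIF11, chr10:92592880-92593179, plus strand: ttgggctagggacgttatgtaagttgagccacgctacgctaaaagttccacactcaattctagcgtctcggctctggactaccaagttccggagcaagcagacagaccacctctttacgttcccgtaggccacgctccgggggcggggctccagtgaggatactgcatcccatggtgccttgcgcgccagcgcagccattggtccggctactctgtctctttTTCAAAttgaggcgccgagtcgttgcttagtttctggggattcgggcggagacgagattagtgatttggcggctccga

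Targets of the integrated stress response were higher in ATUX8H. Of 35 tested (36 listed), 20 were higher, 4 lower and 11 not called, with a median log2 of 0.46, and 4 to 7 were lower with single libraries left out. The median was 0.27, 0.33 and 0.55 within repeats 1, 2 and 3, and 0.34 without repeat 3 of both clones. The regulator NUPR1 was at 34.05, 34.6 and 43.9 CPM in ATUX8H, against 3.53, 3.55 and 4.69 CPM in ATUX9D (log2 = 3.26 ± 0.08, edgeR adjusted p = 9.13e-06). TRIB3, a pseudokinase induced by ATF4, was at 34.2, 29.1 and 62.2 CPM in ATUX8H, against 9.84, 8.65 and 17.7 CPM in ATUX9D (log2 = 1.79 ± 0.07, edgeR adjusted p = 2.07e-05). PHGDH, the entry enzyme of serine synthesis, was at 34.9, 33.3 and 63.6 CPM in ATUX8H, against 7.22, 7.09 and 13.9 CPM in ATUX9D (log2 = 2.23 ± 0.07, edgeR adjusted p = 1.24e-05). All 3 were highest in repeat 3 of each clone.

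ALDH1L2, a mitochondrial folate enzyme (log2 = 2.63 ± 0.17, edgeR adjusted p = 9.99e-05), and SESN2, an inhibitor of mTORC1 signalling (log2 = 0.99 ± 0.10, edgeR adjusted p = 5.78e-04), were higher as well, as were CHAC1, DDIT3, PSAT1 and ASNS (log2 = 1.39, 0.93, 0.85 and 0.56). ATF4 itself did not pass (log2 = 0.13 ± 0.05, edgeR adjusted p = 0.095). The transporters in the list went both ways, SLC7A11 being higher (log2 = 0.56), SLC3A2 lower (log2 = -0.45) and SLC7A1 not called (log2 = -0.11). These 3 genes were named after their values were seen. The calls of SLC7A11 and SLC3A2 were lost without the block, that of SLC7A11 also without a filter on low counts and over 21 libraries without the block, and SLC7A1 was called lower in each fit without repeat 3. SLC7A5, the large neutral amino acid transporter, was at 506.4, 489.0 and 584.0 CPM in ATUX8H, against 878.1, 863.9 and 1311 CPM in ATUX9D (log2 = -0.93 ± 0.08, edgeR adjusted p = 4.17e-04), and SLC38A2, a glutamine carrier, was lower too (log2 = -0.53 ± 0.05, edgeR adjusted p = 4.06e-04), a call lost without the block. Of 21 chaperones of the endoplasmic reticulum 10 were lower and 3 higher, against 2 to 11 lower and 1 to 6 higher with single libraries left out. CALR, the calreticulin gene, had a log2 of -0.32 ± 0.04 (edgeR adjusted p = 0.0016) and PDIA6 of -0.34 ± 0.04 (edgeR adjusted p = 0.00174).

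The amino acid response element TGATGNAA, which ATF4 dimers bind, stood in 3.67% of all promoters on either strand. It stood in 5 of the 25 matched promoters of tested list members, 2 of the 14 that were higher, 1 of the 3 that were lower and 2 that were not called. The higher members were CHAC1, a glutathione-degrading enzyme, and ASNS, asparagine synthetase, whose promoters are shown with the element in capitals.
CHAC1, chr15:40953221-40953520, plus strand: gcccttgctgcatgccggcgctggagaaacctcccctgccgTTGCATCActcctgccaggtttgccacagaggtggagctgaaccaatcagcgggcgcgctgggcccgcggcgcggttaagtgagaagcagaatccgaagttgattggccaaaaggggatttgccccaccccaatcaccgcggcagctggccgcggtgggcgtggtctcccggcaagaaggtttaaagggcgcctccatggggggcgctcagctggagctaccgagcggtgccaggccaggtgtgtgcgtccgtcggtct
ASNS, chr7:97872359-97872658, minus strand: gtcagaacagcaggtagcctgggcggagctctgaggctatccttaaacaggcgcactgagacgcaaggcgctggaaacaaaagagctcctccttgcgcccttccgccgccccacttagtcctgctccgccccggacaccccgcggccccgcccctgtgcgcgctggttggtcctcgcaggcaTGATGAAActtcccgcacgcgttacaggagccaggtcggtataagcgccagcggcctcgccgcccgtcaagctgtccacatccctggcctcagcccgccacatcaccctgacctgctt

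**Figure D3:**
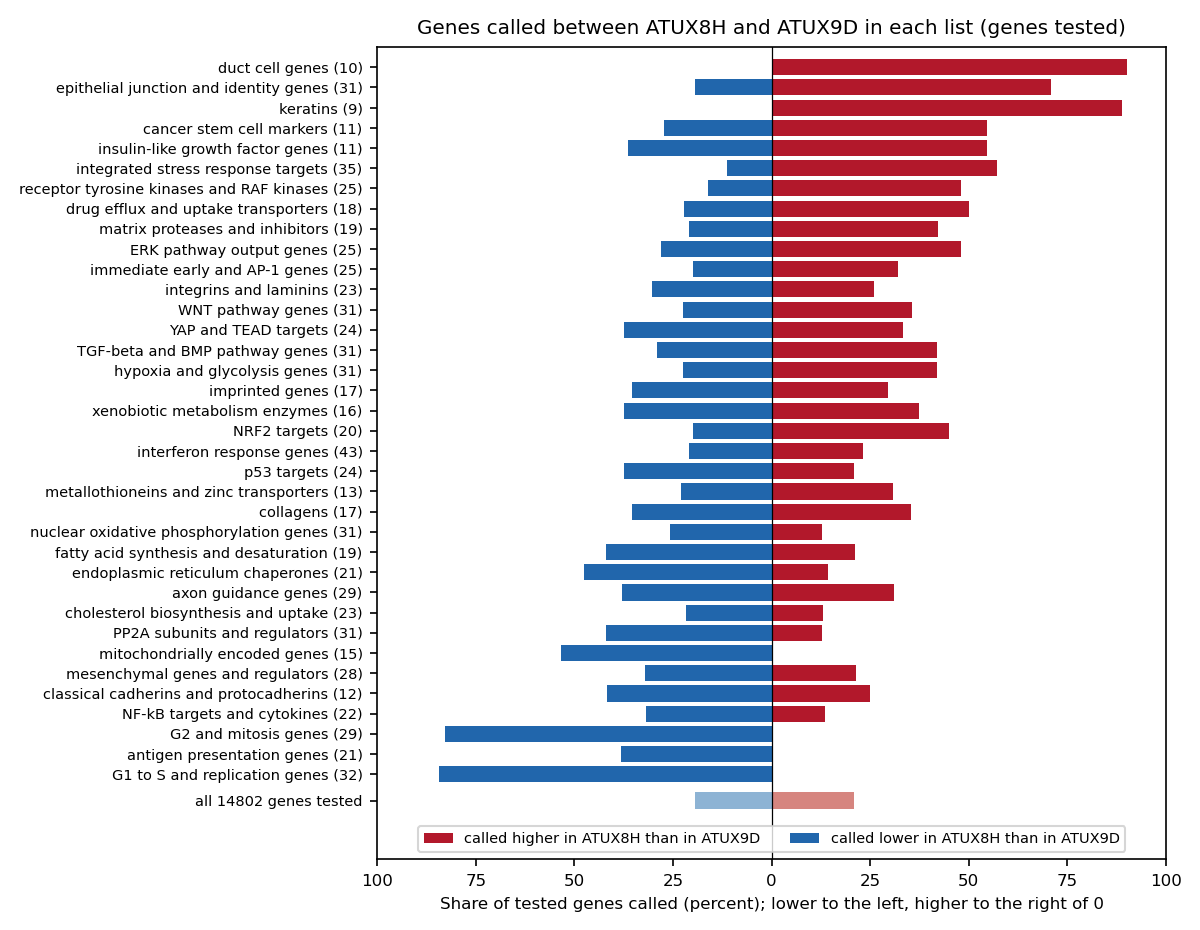
Share of tested genes in each list called higher (right) or lower (left) in ATUX8H than in ATUX9D, in percent, with the number tested in brackets, ordered by median log2 and with all 14802 tested genes at the foot. Keratins, duct and epithelial genes stand at the top with mostly higher genes, and G1 to S and G2 and mitosis genes near the foot with lower genes and 0 higher.

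Growth factor signalling differed gene by gene. Of 25 tested ERK output genes, 12 were higher and 7 lower (median log2 0.23), and of 25 tested receptor tyrosine kinases and RAF kinases, 12 were higher and 4 lower (median log2 0.43). AREG, which encodes the EGF receptor ligand amphiregulin, was at 5.62, 4.95 and 18.97 CPM in ATUX8H, against 1.29, 1.07 and 1.296 CPM in ATUX9D (log2 = 2.79 ± 0.37, edgeR adjusted p = 0.00234). EREG, the epiregulin gene, was at 26.97, 25.3 and 95.1 CPM in ATUX8H, against 15.6, 14.9 and 19.4 CPM in ATUX9D (log2 = 1.31 ± 0.33, edgeR adjusted p = 0.0257). The call of EREG was lost without the block, without a filter on low counts and without repeat 1 or 2 of either clone. The receptor EGFR did not pass, at 274.2, 296.3 and 425.3 CPM in ATUX8H and 293.1, 316.2 and 258.1 CPM in ATUX9D (log2 = 0.18 ± 0.17, edgeR adjusted p = 0.46). Repeat 3 stood apart in opposite directions (interaction log2 0.82), and without repeat 3 of both clones EGFR had a log2 of -0.10 (edgeR adjusted p = 0.00107). FOSL1 (log2 = 0.80), IER3 (log2 = 1.09) and ETV4 (log2 = 1.03), all transcribed on ERK signalling, were higher, the call of FOSL1 being lost without the block. The 7 lower ERK output genes are not named in this paragraph.

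FGFR3, a fibroblast growth factor receptor, was at 7.37, 5.81 and 5.46 CPM in ATUX8H, against 108.6, 109.5 and 79.996 CPM in ATUX9D (log2 = -4.00 ± 0.09, edgeR adjusted p = 6.49e-06), and FGFR4 was lower too (log2 = -2.11 ± 0.25, edgeR adjusted p = 0.00123). EPHB6, an ephrin receptor without kinase activity, was at 109.3, 108.9 and 436.2 CPM in ATUX8H, against 9.09, 10.0 and 21.2 CPM in ATUX9D (log2 = 3.84 ± 0.19, edgeR adjusted p = 6.69e-05). The other 5 clones held 0.0306 to 0.449 CPM of EPHB6. MET, the hepatocyte growth factor receptor, was at 299.4, 301.3 and 398.0 CPM in ATUX8H, against 156.8, 159.3 and 170.1 CPM in ATUX9D (log2 = 1.03 ± 0.07, edgeR adjusted p = 1.30e-04). EPHB2 was higher too (log2 = 1.39 ± 0.15, edgeR adjusted p = 0.00119). MAP2K6, a kinase above p38, had 66 counts in ATUX8H and 3 in ATUX9D, a ratio of 23.2 with a 95% counting interval of 7.59 to 115.

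Of 11 tested insulin-like growth factor genes, 6 were higher and 4 lower (90.9% called), against 2 to 4 lower with single libraries left out. IGFBP4, a binding protein, was at 127.6, 119.4 and 415.3 CPM in ATUX8H, against 23.9, 19.3 and 23.9 CPM in ATUX9D (log2 = 3.06 ± 0.35, edgeR adjusted p = 0.00182). Its call was lost without repeat 2 of ATUX8H and without repeat 1 or 2 of ATUX9D. IGFBP7 went the other way, at 2.34, 2.84 and 0.985 CPM in ATUX8H, against 45.2, 42.2 and 53.7 CPM in ATUX9D (log2 = -4.50 ± 0.29, edgeR adjusted p = 1.73e-04). The ligand IGF2 (log2 = 1.59 ± 0.09, edgeR adjusted p = 6.33e-05) and the receptor IGF1R (log2 = 1.17 ± 0.07, edgeR adjusted p = 6.62e-05) were higher, and IGF2BP3 was lower (log2 = -0.32 ± 0.04, edgeR adjusted p = 0.0022).

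Genes of the TGF-beta and BMP pathways went both ways, 13 of 31 higher and 9 lower, with a median log2 of 0.13. ID3, an inhibitor of basic helix-loop-helix factors that BMP signalling induces, was at 58.5, 51.5 and 88.7 CPM in ATUX8H, against 329.2, 317.3 and 408.5 CPM in ATUX9D (log2 = -2.44 ± 0.09, edgeR adjusted p = 1.71e-05). ID2 (log2 = -1.89 ± 0.23, edgeR adjusted p = 0.00181) and ID1 (log2 = -0.91 ± 0.13, edgeR adjusted p = 0.00354) were lower as well, the call of ID1 being lost without the block and both calls being lost without a filter on low counts. The ligands BMP7 (log2 = 1.59 ± 0.19, edgeR adjusted p = 0.00122) and INHBB, an activin chain (log2 = 2.65 ± 0.09, edgeR adjusted p = 1.24e-05), were higher, and BMP4 had 95 counts in ATUX8H and 2 in ATUX9D, a ratio of 50.0 with a 95% counting interval of 13.5 to 419. In the WNT list, 11 of 31 were higher and 7 lower (median log2 0.20). The receptor FZD7 was at 42.9, 41.5 and 31.2 CPM in ATUX8H, against 5.98, 6.48 and 5.85 CPM in ATUX9D (log2 = 2.65 ± 0.10, edgeR adjusted p = 2.07e-05), and the receptor ROR1 was higher (log2 = 1.81 ± 0.11, edgeR adjusted p = 7.66e-05). The ligand WNT9A (log2 = -1.78 ± 0.07, edgeR adjusted p = 2.33e-05) and the antagonist DKK3 (log2 = -0.81 ± 0.04, edgeR adjusted p = 4.76e-05) were lower. LEF1, a nuclear factor of WNT signalling, did not pass, at 10.8, 11.4 and 18.9 CPM in ATUX8H and 16.8, 16.3 and 19.7 CPM in ATUX9D (log2 = -0.39 ± 0.13, edgeR adjusted p = 0.0519), though it was called lower in 5 alternatives, among them each fit without repeat 3.

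Targets of YAP and TEAD gave 8 higher and 9 lower of 24, against 4 to 12 lower with single libraries left out. AMOTL1, a YAP-binding motin, was at 8.01, 9.42 and 9.44 CPM in ATUX8H, against 59.2, 58.2 and 78.7 CPM in ATUX9D (log2 = -2.86 ± 0.10, edgeR adjusted p = 1.38e-05), and AMOTL2 was lower too (log2 = -0.87 ± 0.05, edgeR adjusted p = 7.31e-05). CYR61 was higher, at 301.0, 302.1 and 694.9 CPM in ATUX8H, against 215.1, 214.7 and 465.8 CPM in ATUX9D (log2 = 0.52 ± 0.04, edgeR adjusted p = 2.72e-04), with repeat 3 high in both clones. Without the block its call was lost. CTGF did not pass, at 219.3, 222.0 and 149.4 CPM in ATUX8H and 166.8, 164.6 and 186.2 CPM in ATUX9D (log2 = 0.17 ± 0.15, edgeR adjusted p = 0.405), and its interaction was log2 -0.73. Each fit without repeat 3 called CTGF higher.

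ABCG2, the breast cancer resistance protein that pumps drugs out of cells, was lower in ATUX8H, at 107.4, 105.4 and 127.0 CPM, against 225.1, 218.2 and 343.0 CPM in ATUX9D (log2 = -1.18 ± 0.08, edgeR adjusted p = 1.71e-04). On the scale shared by all libraries the other 5 clones held 1.95 to 27.5 CPM, below either ATUX clone. Of 18 tested transporters, 9 were higher and 4 lower, with a median log2 of 0.39. ABCC3, an exporter of conjugated drugs, was at 316.1, 345.8 and 311.4 CPM in ATUX8H, against 91.5, 95.1 and 101.8 CPM in ATUX9D (log2 = 1.75 ± 0.06, edgeR adjusted p = 1.38e-05). ABCC1, its relative MRP1, was higher (log2 = 0.49 ± 0.08, edgeR adjusted p = 0.00405), ABCC2 was lower (log2 = -1.58 ± 0.15, edgeR adjusted p = 4.78e-04), and SLC29A1, the equilibrative nucleoside transporter, was lower at 470.5, 472.5 and 406.1 CPM in ATUX8H, against 976.8, 971.1 and 725.5 CPM in ATUX9D (log2 = -0.98 ± 0.05, edgeR adjusted p = 6.21e-05). 

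CYP1B1, a cytochrome induced through the aryl hydrocarbon receptor, was at 258.5, 252.8 and 834.7 CPM in ATUX8H, against 356.3, 361.1 and 930.5 CPM in ATUX9D (log2 = -0.38 ± 0.07, edgeR adjusted p = 0.00933). Repeat 3 was far above the others in each clone, and without the block, or without repeat 2 of either clone, the call was lost. AHRR, the repressor of that receptor (log2 = -0.88 ± 0.12, edgeR adjusted p = 0.00229), and ARNT, its partner (log2 = -0.49 ± 0.05, edgeR adjusted p = 6.69e-04), were lower. Stem cell markers gave 6 higher and 3 lower of 11 tested. ALDH1A3, a retinal dehydrogenase, was at 210.9, 198.3 and 290.0 CPM in ATUX8H, against 38.5, 39.6 and 46.9 CPM in ATUX9D (log2 = 2.47 ± 0.07, edgeR adjusted p = 9.76e-06), and NES, the nestin gene, was higher (log2 = 1.61 ± 0.05, edgeR adjusted p = 1.20e-05).

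Of 19 tested genes of fatty acid synthesis, 8 were lower in ATUX8H and 4 higher, against 2 to 7 higher with single libraries left out. FASN, the fatty acid synthase gene, was at 783.0, 820.9 and 408.0 CPM in ATUX8H, against 1338, 1392 and 862.1 CPM in ATUX9D (log2 = -0.87 ± 0.07, edgeR adjusted p = 2.89e-04). FADS2, a desaturase, was at 220.4, 220.6 and 66.6 CPM in ATUX8H, against 336.1, 335.0 and 143.3 CPM in ATUX9D (log2 = -0.76 ± 0.11, edgeR adjusted p = 0.00294). Both were lowest in repeat 3, and both calls were lost without the block. SCD, the main stearoyl desaturase, did not pass (log2 = 0.23 ± 0.09, edgeR adjusted p = 0.0929), though each fit without repeat 3 called it higher. Of 23 cholesterol genes, 5 were lower, 3 higher and 15 not called, a share called (34.8%) below the 40.3% of all genes, and 1 to 9 were lower and 2 to 7 higher with single libraries left out. SREBF2, the regulator of the pathway, was lower (log2 = -0.42 ± 0.04, edgeR adjusted p = 6.37e-04), and of the 3 higher genes EBP and NSDHL lie on chromosome X.

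Glucose handling genes gave 13 higher and 7 lower of 31, against 3 to 9 lower with single libraries left out. SLC2A1, the GLUT1 gene, was at 57.9, 59.1 and 101.9 CPM in ATUX8H, against 20.9, 22.7 and 29.2 CPM in ATUX9D (log2 = 1.55 ± 0.09, edgeR adjusted p = 8.01e-05). HK2, a hexokinase, was at 9.42, 10.1 and 31.4 CPM in ATUX8H and 4.94, 4.35 and 12.7 CPM in ATUX9D. Repeat 3 of ATUX9D thus lay above repeats 1 and 2 of ATUX8H. HK2 was called higher with the block but not without it (log2 = 1.16 ± 0.12, edgeR adjusted p = 5.82e-04). ADM, the adrenomedullin gene, was lower (log2 = -1.24 ± 0.06, edgeR adjusted p = 4.25e-05). Mitochondrially encoded genes gave 0 higher and 8 lower of 15, with a median log2 of -0.18, against 3 to 10 lower with single libraries left out. Reads of these genes can be shared with nuclear copies.

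Of 43 tested interferon response genes, 10 were higher and 9 lower (44.2% called), near the background of 40.3%, against 6 to 16 higher and 4 to 10 lower with single libraries left out. OASL (log2 = 2.19 ± 0.21, edgeR adjusted p = 5.25e-04) and IFIT2 (log2 = 1.45 ± 0.10, edgeR adjusted p = 1.12e-04) were higher, and IFITM3 was lower (log2 = -0.78 ± 0.04, edgeR adjusted p = 5.58e-05). Antigen presentation genes gave 0 higher and 8 lower of 21 (38.1% called, near the background of 40.3%), with 0 to 4 higher with single libraries left out. Their median log2 was -0.17, -0.18 and -0.75 within repeats 1, 2 and 3. TAP1, the peptide transporter, was at 75.7, 76.985 and 74.9 CPM in ATUX8H, against 125.5, 130.4 and 188.7 CPM in ATUX9D (log2 = -0.94 ± 0.13, edgeR adjusted p = 0.00258). HLA-B, whose reads can be shared with other HLA genes, was at 55.3, 58.1 and 56.1 CPM in ATUX8H and 62.8, 67.3 and 126.4 CPM in ATUX9D, and did not pass (edgeR adjusted p = 0.0923). In both genes the repeats of ATUX8H were level and repeat 3 of ATUX9D was high. Of 22 tested NF-kB targets and cytokines, 3 were higher, 7 lower and 12 not called (45.5% called, near the background of 40.3%). With single libraries left out, 3 to 6 of that list were higher. CXCL1, a neutrophil chemokine, was at 5.92, 5.55 and 10.2 CPM in ATUX8H, against 27.7, 23.6 and 52.6 CPM in ATUX9D (log2 = -2.23 ± 0.09, edgeR adjusted p = 2.14e-05), and CSF1, the macrophage growth factor gene, at 235.1, 237.5 and 288.7 CPM in ATUX8H, against 510.7, 500.5 and 914.5 CPM in ATUX9D (log2 = -1.29 ± 0.12, edgeR adjusted p = 6.83e-04).

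Axon guidance genes split with 9 higher and 11 lower of 29, against 7 to 14 higher with single libraries left out. SEMA3A, a secreted semaphorin, was at 62.4, 61.6 and 57.6 CPM in ATUX8H, against 249.9, 252.4 and 201.0 CPM in ATUX9D (log2 = -1.95 ± 0.06, edgeR adjusted p = 1.20e-05). SEMA3C (log2 = -0.85 ± 0.04, edgeR adjusted p = 2.79e-05) and SEMA6B (log2 = -3.25 ± 0.09, edgeR adjusted p = 9.33e-06) were lower too. NRP2, a semaphorin and VEGF co-receptor, was at 88.6, 93.7 and 43.1 CPM in ATUX8H, against 5.73, 6.44 and 4.29 CPM in ATUX9D (log2 = 3.74 ± 0.13, edgeR adjusted p = 1.38e-05). Imprinted genes gave 5 higher and 6 lower of 17. PEG10, a retrotransposon-derived gene, was at 238.0, 246.2 and 273.3 CPM in ATUX8H, against 603.8, 611.6 and 583.7 CPM in ATUX9D (log2 = -1.25 ± 0.06, edgeR adjusted p = 3.54e-05), and MEST was higher (log2 = 1.56 ± 0.11, edgeR adjusted p = 1.41e-04).

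Genes of chromosome X differed as a block. Of 462 tested chromosome X genes, 353 (76.4%) were higher in ATUX8H and 20 lower, against 19% higher among the other tested genes. They made up 235 of the 1241 genes that were at least 2-fold higher (18.9%). Without them, 1006 genes were at least 2-fold higher and 453 lower, and the counts past the threshold were 2727 higher and 2864 lower of 14340. Medians were taken over genes averaging 5 CPM or more. The first 40 Mb of the chromosome showed no shift, with a median log2 of 0.01 over 63 genes, 12 higher and 11 lower. From 40 to 100 Mb the median was 0.83 over 125 genes (1.77-fold), 115 of them higher and 2 lower. From 100 to 160 Mb it was 1.32 over 154 genes (2.49-fold), 151 higher and 1 lower. The boundaries were read from these data in steps of 10 Mb, so the contrast between stretches is a description without a test.

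The shift was alike in every repeat. Within repeats 1, 2 and 3 the median was 0.79, 0.79 and 0.83 from 40 to 100 Mb, and 1.29, 1.27 and 1.31 from 100 Mb on. Set against the median of the 5 SMAP and Sorafenib clones, ATUX8H stood at a log2 of -0.59, 0.09 and 0.62 over the 3 stretches and ATUX9D at -0.59, -0.74 and -0.64. ATUX9D was thus below that median along the whole chromosome, as were Sor6G (-0.57, -0.51 and -0.68) and Sor9H (-0.60, -0.59 and -0.66). ATUX8H was below it in the first stretch only. SMAP6G stood at 0, 0 and 0.25, SMAP8D at 0.28, 0 and 0, and SMAP9C at 0.37, 0.03 and 0. Most of the 5 clones are SMAP clones, so the median lies near their level and does not tell which clones are low or high. The medians over autosomal genes were 0.02 in ATUX8H and 0.07 in ATUX9D. Copy number and regulation cannot be told apart from these counts.

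FLNA (ENSG00000196924, GRCh38 chromosome X, 154348524 to 154374638, minus strand), the filamin A gene, was at 2493, 2598 and 2746 CPM in ATUX8H, against 1021, 1056 and 968.7 CPM in ATUX9D (log2 = 1.36 ± 0.05, edgeR adjusted p = 2.11e-05), a value at the median of its stretch. RPL10, a ribosomal protein with pseudogene copies, had a log2 of 1.13 ± 0.04 (edgeR adjusted p = 1.49e-05). NSDHL (log2 = 1.37), NDUFA1 (log2 = 1.32) and ACSL4 (log2 = 1.51) lay near the median of 1.32, EBP (log2 = 0.90) near that of 0.83, and TIMP1 (log2 = 1.62) above it. SAT1, a polyamine enzyme in the first stretch, was lower, at 249.5, 245.1 and 224.7 CPM in ATUX8H, against 669.1, 686.7 and 668.2 CPM in ATUX9D (log2 = -1.49 ± 0.05, edgeR adjusted p = 1.20e-05).

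**Figure D4:**
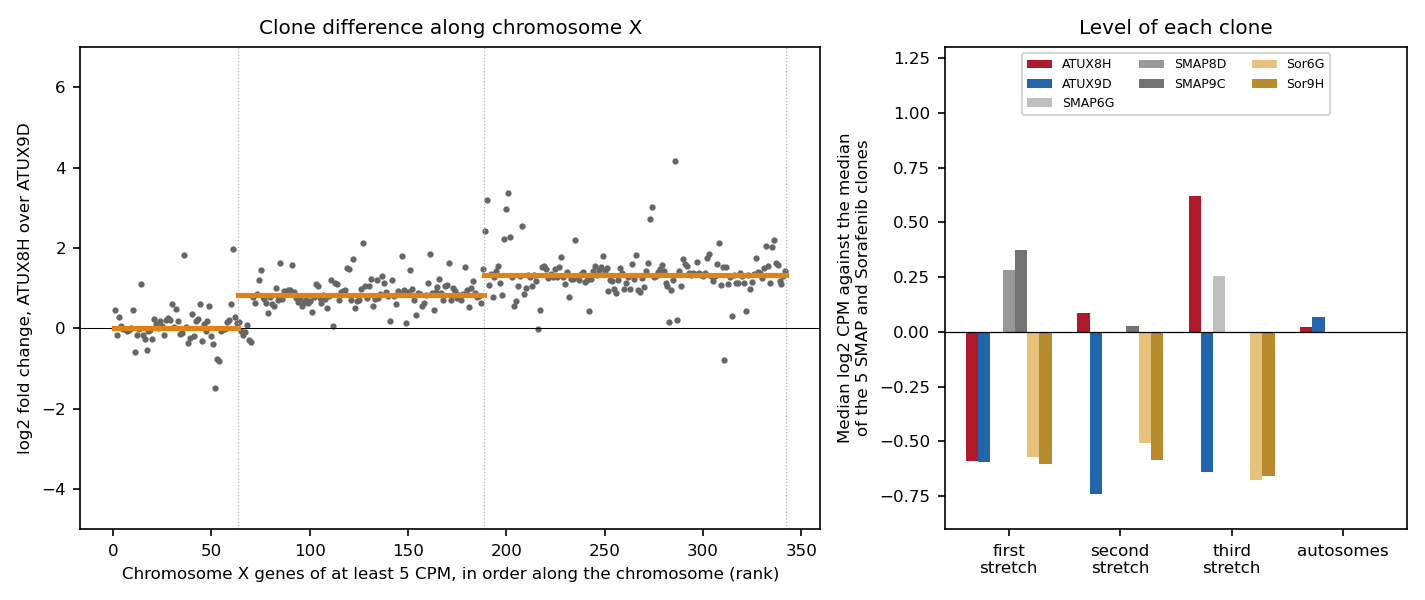
Left, log2 fold change of ATUX8H over ATUX9D for 342 chromosome X genes of at least 5 CPM in their order along the chromosome, with 1 point per gene, dotted lines at the ends of the 3 stretches (0 to 40, 40 to 100 and 100 to 160 Mb) and orange lines at their medians (0.01, 0.83 and 1.32). Right, median log2 level of each clone in those stretches and over the autosomes, against the median of the 5 SMAP and Sorafenib clones, where ATUX9D and both Sorafenib clones are below 0 throughout chromosome X.

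Of 125 stretches of 25 Mb with at least 20 such genes, 8 had a median log2 beyond 0.3 in either direction. On other chromosomes, chromosome 10 from 125 Mb on had a median of -0.43 over 23 genes, with -0.24, -0.28 and -0.53 within repeats 1, 2 and 3, so that repeat 3 alone passed 0.3. Chromosome 13 had a median of -0.34 over 31 genes from 75 to 100 Mb, with -0.37, -0.35 and -0.22 within the repeats. From 100 Mb on it had -0.39 over 38 genes, with -0.46, -0.40 and -0.28 within the repeats, and on chromosome 13 repeat 3 did not pass 0.3.

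That repeat 3 departs from the others in each clone was known when the comparison was chosen, so its genes are given as a description. The interaction passed an adjusted p of 0.05 in 1967 genes (13.3% of those tested), the clone difference being higher in repeat 3 in 766 (5.17%) and lower in 1201 (8.11%). This count rests on 1 library of repeat 3 per clone, set against the spread between repeats 1 and 2, and does not show what further libraries would give. PKP2, a desmosomal plakophilin, was at 1.70, 3.14 and 37.5 CPM in ATUX8H and 1.87, 2.29 and 1.92 CPM in ATUX9D, so that its difference was seen in repeat 3 alone (interaction log2 4.07). FLRT2, a fibronectin leucine-rich transmembrane protein gene, was below ATUX9D in repeats 1 and 2 and above it in repeat 3, at 0.469, 1.08 and 13.2 CPM in ATUX8H and 1.79, 1.94 and 0.804 CPM in ATUX9D (interaction log2 5.30). TNS4 was at 3.28, 3.74 and 31.1 CPM in ATUX8H and 0.125, 0.152 and 0.0447 CPM in ATUX9D (interaction log2 4.68). CCM2L, a vascular adaptor gene, ran the other way, at 20.4, 20.4 and 1.61 CPM in ATUX8H and 3.28, 3.62 and 6.44 CPM in ATUX9D (interaction log2 -4.56). PKP2, FLRT2 and CCM2L were not called for the clone over all repeats (edgeR adjusted p = 0.176, 0.675 and 0.281). The other genes with the largest interactions were ALPPL2, PDE4B, ADRA2B, PAK6, PTGS1 and PPM1H.

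**Figure D5:**
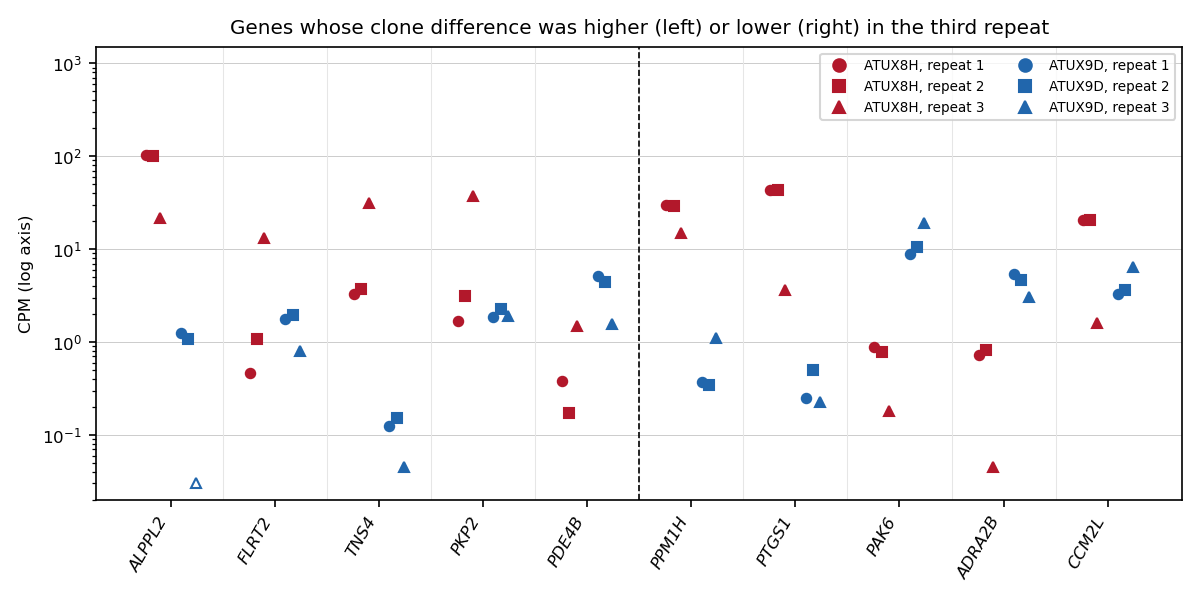
CPM (log axis) of the genes with the largest interactions past the threshold between clone and repeat 3, higher left and lower right of the dashed line, with 1 symbol per library, ATUX8H left of ATUX9D, triangles for repeat 3 and an open symbol for 0 counts. PKP2 is at 37.5 CPM in repeat 3 of ATUX8H and at most 3.14 CPM in the other libraries, and CCM2L is above ATUX9D in repeats 1 and 2 of ATUX8H and below it in repeat 3.

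For the 1701 called genes of at least 2-fold, each clone's mean was set against the range of the other 5 clones. The scale was the one shared by all libraries. ATUX8H alone lay outside that range in 424 genes (24.9%), ATUX9D alone in 441 (25.9%), both in 377 (22.2%) and neither in 459 (27%). CDH1 in ATUX8H was above the 0.163 to 15.7 CPM of the other clones, and CDH2 in ATUX9D above their 0.226 to 41.3 CPM. PPP2R2B in ATUX8H was above their 1.58 to 41.9 CPM, while in ATUX9D it lay within that range. These are positions among 5 clones picked for sequencing, with no test. Genes chosen for a 2-fold difference are more apt to leave that range, and the shares over all tested genes were not taken. The other clones carried other drugs, so clone and drug cannot be told apart here.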

How the data were processed

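RNA of the clones had been sequenced from TruSeq Stranded mRNA libraries, per the labels' protocols. The authors deposited 1 table of raw read counts per gene (58233 genes, 21 libraries), with gene length and GC percent columns that were deposited beside the counts and not used in any test. The submitters' processing notes name cutadapt 1.15, Bowtie2 2.3.3.1, STAR 2.5.2b, SAMtools 1.5, featureCounts 1.5.3 and GRCh38; how strand and multiply mapped reads were handled, and which annotation release was used, is not given here, so overlapping, antisense and near-identical genes are uncertain.

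Counts of the 6 ATUX libraries were scaled by TMM, filtered by expression (14802 genes kept) and tested with the quasi-likelihood test of edgeR 4.0.16 in R 4.3.3, with terms for repeat number and clone. P-values were adjusted by Benjamini-Hochberg over all tested genes, at a threshold of 0.05. Same-numbered libraries correlated at 0.169, 0.205 and 0.26 in their deviations from the clone means. Differently numbered libraries correlated at -0.234 to 0.101, 1 pair of them (repeat 2 of ATUX8H with repeat 1 of ATUX9D) also over 0.1, so repeats 1 and 2 are told apart only weakly. The number entered as a block, as the comparison was set up. Without it 5056 genes were called. A second fit held an interaction of clone with repeat 3. Levels in the other clones are on a TMM scale over all 21 libraries. A gene at 0 counts was bounded at 3 counts over the clone, and 95% intervals on count ratios cover counting error only. Alternatives used limma 3.58.1, DESeq2 1.42.0, other filters and scalings, and single libraries left out. On counts simulated with the dispersions of these libraries, the clone fit recovered 93% of 2-fold and 100% of 4-fold changes. The interaction fit recovered 62% and 85%. Simulated libraries were drawn independently, so this cannot tell whether the repeats were separate cultures.

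The members and gene lists were chosen with earlier results of these data known. Named genes are the 15 with the largest log2 in each direction (at least 5 CPM in the higher clone, no overlap), the 5 at least 2-fold apart with the largest CPM difference in each direction, the leading and most abundant members of the lists, the 5 largest interactions in each direction and a short set of PP2A and resistance genes. Some genes this rule takes are given only through their list's counts, and a few are not reported here. Further list members, the printed promoters and the chromosome X boundaries were chosen after their values were seen. Promoters are from RefSeq.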

Additional observations from a re-analysis of the deposited data

Results flagged for a closer look

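The interaction of clone with repeat 3 passed an adjusted p of 0.05 in 1967 genes (edgeR quasi-likelihood, adjusted over all tested genes). The departure of repeat 3 was known beforehand, each clone has 1 such library, and the error comes from repeats 1 and 2, so the count and the values are a description. The largest positive interactions were in ALPPL2 (log2 5.52), where repeat 3 of ATUX9D held 0 counts and the fitted value depends on the prior count, and in FLRT2 (log2 5.30), TNS4 (log2 4.68), PKP2 (log2 4.07) and PDE4B (log2 4.00). The largest negative interactions were in CCM2L (log2 -4.56), ADRA2B (log2 -3.23), PAK6 (log2 -3.15), PTGS1 (log2 -2.84) and PPM1H (log2 -2.63). The interaction of ADRA2B was no longer called when all 21 libraries were fitted together.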

How the results depend on the processing

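Of 181 genes named in the text and followed through up to 15 alternatives, 163 were called, 132 of them in every alternative that tested them, and 31 lost the call in at least 1. Without a filter on low counts the calls of AGR2, EREG, IGFBP4, KRT8, PODXL and TNC were among those lost. Another 12 genes, not called over all repeats, were called in at least 1 alternative, PDE4B in 8, CCM2L in 4 and PKP2 in 3 among them. The blocked count of 5964 called genes compares with 5056 without the replicate block, of which 4955 were shared with the same sign, and the count at 2-fold or more was 1701 with and 1666 without it. With single libraries left out the called count ran from 3373 to 8915 and the 2-fold count from 1504 to 1976. A filter of 5 CPM left 935 genes at 2-fold or more and moved the epithelial median to 0.54 and the duct median to 0.76. Genes past the threshold between repeat 3 and the other repeats, a departure known beforehand and so a description, numbered 2533 without a filter and 3175 over 21 libraries, against 1434.

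The PP2A median of -0.12 was -0.14 without a filter, -0.10 with a filter of 5 CPM, -0.14 in either fit over 21 libraries, -0.14 without repeat 3 of both clones and -0.14 without chromosome X genes, an alternative chosen after seeing the data. With single libraries left out it ran from -0.15 to -0.10, the keratin median from 0.85 to 1.07, the duct median from 0.88 to 1.64, the G1 to S median from -0.41 to -0.37 and the G2 and mitosis median from -0.40 to -0.30. The chromosome X median from 40 to 100 Mb was 0.85 over genes of at least 1 CPM and 0.80 without repeat 3.

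Signs turned for the collagen median without a filter (0.36), for the endocrine (-0.0047) and xenobiotic (-0.29) medians with a filter of 5 CPM and for the YAP median without repeat 3 of both clones (-0.12) or of 1 clone (-0.12 to -0.08). Without repeat 3 of both clones the log2 was 0.20 for CDKN1A, 0.17 for COL1A1, -0.10 for EGFR, -1.29 for FLRT2 and 0.092 for VIM. With single libraries left out CDKN1A ran from -0.24 to 0.20, COL1A1 from -0.57 to 0.17, EGFR from -0.11 to 0.32, FLRT2 from -1.29 to 1.68 and VIM from -0.070 to 0.091. VIM was at 0.018 with a filter of 5 CPM. The cause of these shifts was not tested. With 3 libraries a clone and repeat 3 apart in each, small differences rest on few libraries.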

Other observations

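Further gene lists are given by their counts and leading genes, with no test of a list. Among NRF2 targets, 9 of 20 were higher in ATUX8H and 4 lower. ME1, the cytosolic malic enzyme gene, was at 44.6, 38.9 and 50.3 CPM in ATUX8H, against 14.9, 14.2 and 18.1 CPM in ATUX9D (log2 = 1.502 ± 0.07, edgeR adjusted p = 3.22e-05). FTL, the ferritin light chain gene, overlapped between the clones (log2 = 0.05 ± 0.04, edgeR adjusted p = 0.324). Among zinc and metallothionein genes, 4 of 13 were higher and 3 lower, against 2 to 4 higher and 1 to 4 lower with single libraries left out. SLC30A1, a zinc exporter, was at 171.8, 170.2 and 169.9 CPM in ATUX8H, against 83.3, 83.6 and 68.5 CPM in ATUX9D (log2 = 1.13 ± 0.07, edgeR adjusted p = 8.50e-05), and SLC39A8, a zinc importer, was lower (log2 = -1.14 ± 0.14, edgeR adjusted p = 0.0014).

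Among immediate early genes, 8 of 25 were higher and 5 lower, against 4 to 16 higher with single libraries left out. NR4A1, an orphan nuclear receptor, was at 2.56, 2.49 and 2.10 CPM in ATUX8H, against 12.4, 11.5 and 10.8 CPM in ATUX9D (log2 = -2.27 ± 0.13, edgeR adjusted p = 6.86e-05). F3, the tissue factor gene, was at 10.4, 8.95 and 9.53 CPM in ATUX8H, against 0.415, 0.800 and 1.03 CPM in ATUX9D (log2 = 3.69 ± 0.27, edgeR adjusted p = 1.70e-04). Of 31 nuclear oxidative phosphorylation genes, 4 were higher and 8 lower (38.7% called, near the background of 40.3%), against 2 to 8 higher and 2 to 10 lower with single libraries left out.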
